A study of Homo sapiens with 30 samples.

Results

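The genes of sterol and fatty acid synthesis that the SREBP transcription factors control, with the regulators of those factors, were followed in macrophage-like THP-1 cells exposed to nanomaterials. The list held 33 genes, and the members were every probe set that the platform annotation assigns to a single one of these symbols, current or older. Of the 33 genes, 30 had such a probe set, and 29 passed the filter on dim signals and were tested among 10050 genes in all. CYP51A1 and FADS1 shared their probe sets with another gene in the annotation, and FDFT1 had no probe set of its own there, so these 3 were not analysed here. ELOVL6, a fatty acid elongase, lay between 2.55 and 2.92 on the log2 scale on all 30 arrays and did not pass the filter. All 29 tested members exceeded each array's 25th percentile on all 30 arrays, so none entered the test through a single group.

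THP-1 is an established human line from an acute monocytic leukaemia. All groups, controls included, first received the phorbol ester PMA at 82 nM for 24 h, which makes the cells adherent and macrophage-like, and were then washed, scraped off and plated again. Culture then went on for 1 or 24 h. The medium held multi-walled carbon nanotubes (MWCNT) at 10 or 100 µg/ml, titanium dioxide nanobelts (TiO2-NB) at 10 or 100 µg/ml, or, in the controls, 0 µg/ml of either. MWCNT are nested tubes of carbon, and TiO2-NB are ribbon-shaped titanium dioxide particles. That gave 10 groups of 3 arrays, which the labels call biological replicates without saying more on how the cultures were separated. A single cell line was used, so the results describe that line after PMA.

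Cholesterol is built from acetyl-CoA through mevalonate, isoprenyl diphosphates, squalene and lanosterol, and each step has its own enzyme. SREBF2 encodes the SREBP that mainly drives these enzymes, and SREBF1 encodes the SREBP that mainly drives fatty acid synthesis. SCAP carries both precursors to the Golgi, where they are cut and released, and INSIG1 and INSIG2 hold SCAP in the endoplasmic reticulum when sterols are plentiful. INSIG1 is itself a target of the pathway, and so are TMEM97, an endoplasmic reticulum protein also known as the sigma-2 receptor, and most of the enzymes. In macrophages the pathway stands against the uptake of cholesterol with engulfed material and its export through the LXR receptors.

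The promoters of 5 members are printed here because the results below turn on these genes: MSMO1 moved in opposite directions with the materials, LSS was higher with both, TMEM97 had the largest difference with MWCNT, INSIG1 was lower with MWCNT, and SREBF2 encodes the factor itself. Each line gives the 250 bases before the RefSeq start of the gene (GRCh38.p14), 5′ to 3′ along the gene. Capitals mark the NF-Y box CCAAT on either strand, the sterol regulatory element TCACNCCAC and the E box TCACGTGA.
MSMO1, chr4:165327419-165327668, plus strand: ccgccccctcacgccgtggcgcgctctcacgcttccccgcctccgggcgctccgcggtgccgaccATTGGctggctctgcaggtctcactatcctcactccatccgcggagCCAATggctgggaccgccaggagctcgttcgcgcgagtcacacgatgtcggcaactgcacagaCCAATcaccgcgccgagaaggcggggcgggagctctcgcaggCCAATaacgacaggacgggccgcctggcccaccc
LSS, chr21:46228775-46229024, minus strand: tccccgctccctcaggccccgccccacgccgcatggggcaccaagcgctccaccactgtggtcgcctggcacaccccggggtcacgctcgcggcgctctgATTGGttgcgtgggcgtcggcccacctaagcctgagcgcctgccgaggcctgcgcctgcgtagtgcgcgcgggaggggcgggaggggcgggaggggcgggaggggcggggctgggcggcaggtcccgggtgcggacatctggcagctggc
TMEM97, chr17:28318950-28319199, plus strand: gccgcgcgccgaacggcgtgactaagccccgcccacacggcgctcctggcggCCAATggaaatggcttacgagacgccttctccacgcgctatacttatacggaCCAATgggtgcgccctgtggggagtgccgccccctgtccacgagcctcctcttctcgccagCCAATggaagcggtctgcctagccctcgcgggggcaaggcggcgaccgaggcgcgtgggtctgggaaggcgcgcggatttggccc
INSIG1, chr7:155297628-155297877, plus strand: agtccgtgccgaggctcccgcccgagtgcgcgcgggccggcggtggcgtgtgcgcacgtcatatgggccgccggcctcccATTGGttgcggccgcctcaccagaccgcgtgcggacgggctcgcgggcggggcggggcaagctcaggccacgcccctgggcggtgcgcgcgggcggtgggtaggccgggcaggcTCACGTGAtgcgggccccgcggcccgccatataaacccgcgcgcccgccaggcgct
SREBF2, chr22:41832855-41833104, plus strand: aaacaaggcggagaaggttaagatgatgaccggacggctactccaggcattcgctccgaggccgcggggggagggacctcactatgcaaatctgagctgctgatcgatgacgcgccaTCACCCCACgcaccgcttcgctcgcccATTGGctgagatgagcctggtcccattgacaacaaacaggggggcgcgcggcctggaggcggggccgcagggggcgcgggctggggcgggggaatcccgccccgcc

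A promoter window was at hand for 29 of the 33 listed genes, not for SQLE, FASN, FDFT1 and ACAT2. NF-Y is a factor that works beside SREBP at many sterol-regulated promoters. Its CCAAT box, searched like all motifs here on both strands of the 250 bases, occurred in the windows of 20 of these 29 genes (69.0%), against 42.2% of the 8129 tested genes and 37.0% of all 27305 genes with a window. MSMO1 held 4 copies and TMEM97 held 3, against 1 each in LSS, INSIG1 and SREBF2. MVK and NSDHL, whose windows are not printed here, held the most among the members, 5 each. The number of copies was not tested against the differences in level. The GC box GGGCGG, which Sp1 binds, occurred in 28 members (96.6%), against 71.7% of tested genes and 46.2% of all genes. The sterol regulatory element TCACNCCAC occurred in 1 member (3.45%), against 1.28% of tested genes and 1.09% of all genes. That member was SREBF2, where the word TCACCCCAC ran from 133 to 125 bases before the start. The E box TCACGTGA, searched after the INSIG1 sequence had been read, occurred in INSIG1 alone among the members (3.45%), against 1.99% of tested genes and 1.04% of all genes. A match of letters is a description of the window and not a binding site, and different motifs do not overlap one another in these 5 windows.

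Values are the authors' deposited log2 probe set intensities after RMA, and differences are log2 differences with the standard error (SE) of a limma fit over all 30 arrays. Calls rest on an adjusted p under 0.05 (Benjamini-Hochberg over the 10050 genes within a comparison), with n = 3 arrays per group throughout. Values ran between 1.89 and 14.42, array medians between 6.35 and 6.46, and arrays of a group correlated at 0.991 or higher. The median residual SD was 0.112 among the members and 0.128 among all genes, and 3 arrays per group set the precision. In every group 1 array stood apart from the other 2 along the first component of the deviations from the group means over all tested genes, which held 49.9% of their variance at 24 h and 43.1% at 1 h. At 24 h this was replicate 3 of the control and of both 10 µg/ml groups and replicate 1 of both 100 µg/ml groups, and at 1 h replicate 2 of each group except 10 µg/ml TiO2-NB, where it was replicate 1. The labels name no batch. The mean level of 13 cell cycle genes deviated from the group mean by 0.14 to 0.36 in these 5 arrays at 24 h and by -0.25 to -0.05 in the other 10. Without the 10 arrays that stood apart, chosen from these same values and leaving 2 per group, the members called numbered 11 with 100 µg/ml MWCNT and 8 with 100 µg/ml TiO2-NB against control at 24 h, 19 between those materials and 25 between times in control cells, close to the counts given below. Of 11 macrophage and monocyte markers 9 had a probe set and 6 lay above the 75th percentile on all arrays, among them CTSB, LGALS3, PTPRC and CSF1R. FCGR1A, the high-affinity IgG receptor, was dim at a mean of 4.23, and CD14 averaged 7.18. Epithelial markers reached a mean of 5.78 at most. Of 7 hepatocyte markers CYP3A4 was the brightest at 7.58 and ALB the dimmest at 3.08. The fibroblast marker COL1A1 reached 7.97 and the lymphocyte marker NKG7 reached 7.34. FABP4 (13.66), listed as an adipocyte marker and also made by macrophages, and the lymphocyte marker GNLY (9.56) were bright.

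Control cells at 24 h of culture after replating differed widely in this pathway from control cells at 1 h. Of the 29 members, 27 differed, 24 of them lower at 24 h and 3 higher, a share of 93.1% against 36.9% of all tested genes. Lower calls made up 16.1% and higher calls 20.8% of all genes. The median difference was -1.0 over the members and 0.03 over all genes. In 27 members the arrays at 24 h and 1 h did not overlap, which held for 45.0% of all genes. In bulk samples like these, fewer cells of a type and less RNA per cell cannot be told apart.

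All 9 tested enzymes from squalene to cholesterol and 6 of the 8 from acetyl-CoA to prenyl diphosphates were lower at 24 h. ACAT2, which joins 2 acetyl-CoA at the entry of the pathway, read 7.16, 7.20 and 7.71 in the 24 h controls, against 10.30, 10.28 and 10.20 in the 1 h controls (-2.90 ± 0.17 SE, adjusted p = 2.19e-12 by limma). HMGCS1, the HMG-CoA synthase, read 8.0, 8.24 and 8.32 at 24 h, against 10.35, 10.21 and 10.33 at 1 h (-2.11 ± 0.11). FDPS, which makes farnesyl diphosphate, read 10.26, 10.26 and 10.29 at 24 h, against 12.34, 12.39 and 12.34 at 1 h (-2.09 ± 0.06). For these 3 genes every 24 h array lay far below every 1 h array. IDI1, the isopentenyl diphosphate isomerase, differed by -2.03 ± 0.10 and MVD, the mevalonate diphosphate decarboxylase, by -1.02 ± 0.15. MVK, the mevalonate kinase, differed by less (-0.35 ± 0.09). PMVK, the kinase after it (0.10 ± 0.13, adjusted p = 0.582), and GGPS1, which makes geranylgeranyl diphosphate (0.02 ± 0.07, adjusted p = 0.826), were not called.

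Among the later enzymes DHCR7, the last reductase of cholesterol synthesis, read 6.48, 6.67 and 6.84 at 24 h, against 8.43, 9.07 and 8.58 at 1 h (-2.03 ± 0.15). HSD17B7, a 3-keto-sterol reductase, read 8.38, 8.35 and 8.29 at 24 h, against 10.12, 10.00 and 10.04 at 1 h (-1.71 ± 0.08). MSMO1, the C4 sterol methyl oxidase, read 10.46, 10.64 and 10.56 at 24 h, against 11.76, 11.70 and 11.67 at 1 h (-1.15 ± 0.07). None of these groups overlapped. LSS, which closes squalene epoxide into lanosterol, read 8.71, 8.52 and 8.87 at 24 h, against 9.77, 9.62 and 9.55 at 1 h (-0.95 ± 0.10). SC5D, the sterol C5 desaturase, differed by -1.55 ± 0.09, the sterol isomerase EBP by -1.36 ± 0.08, TM7SF2, a C14 sterol reductase, by -1.0 ± 0.16, and NSDHL, which acts with MSMO1, by -0.97 ± 0.08. SQLE, the squalene epoxidase, differed by -0.14 ± 0.05 on the probe set used, with 13.00, 13.09 and 12.97 at 24 h against 13.20, 13.13 and 13.13 at 1 h. That probe set lay near the top of the measured range, and the SQLE call was lost under 8 of 14 alternatives (adjusted p 0.00117 to 0.223). The other 2 probe sets of SQLE differed more in this comparison, by -0.32 ± 0.09 and by -0.88 ± 0.22 on the dimmest.

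The regulators split. INSIG1 read 10.62, 10.68 and 10.49 at 24 h, against 12.10, 11.83 and 12.05 at 1 h (-1.40 ± 0.10, adjusted p = 3.64e-11 by limma). SREBF2 read 8.59, 8.52 and 8.72 at 24 h, against 9.22, 9.34 and 9.29 at 1 h (-0.68 ± 0.05). TMEM97 read 6.93, 7.0 and 7.68 at 24 h, against 9.83, 9.62 and 9.56 at 1 h (-2.47 ± 0.20). These 3 fell without overlap, and 1 of the 24 h control arrays, replicate 3, stood above the other 2 for TMEM97. SREBF1 was higher, with 7.07, 7.13 and 7.05 at 24 h against 6.74, 6.80 and 6.72 at 1 h (0.33 ± 0.11, adjusted p = 0.0203 by limma), and its call was lost without replicate 1 or 3 of the 1 h control or replicate 2 of the 24 h control (adjusted p 0.011 to 0.0621 over all alternatives). INSIG2 (0.59 ± 0.13) and SCAP (0.39 ± 0.09) were higher as well.

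All 6 tested fatty acid and lipid genes were lower at 24 h. SCD, the stearoyl-CoA desaturase, read 9.72, 9.99 and 9.89, against 11.26, 11.43 and 11.38 at 1 h (-1.49 ± 0.08). FADS2, a polyunsaturated fatty acid desaturase, differed by -1.61 ± 0.17, the fatty acid synthase FASN by -0.47 ± 0.07, the ATP-citrate lyase ACLY by -0.46 ± 0.05, the acetyl-CoA carboxylase ACACA by -0.30 ± 0.07 and LPIN1, a phosphatidate phosphatase, by -0.31 ± 0.12. The LPIN1 call was lost under 6 of 14 alternatives (adjusted p 0.0252 to 0.164), and the FASN call with the mean of its probe sets (adjusted p = 0.153). Cell cycle genes moved with this comparison: 12 of 13 listed ones were lower at 24 h (16.1% of all genes), and their mean level lay between 7.49 and 7.97 in the 24 h controls and between 8.79 and 9.06 in the 1 h controls. The part of the cell cycle in the pathway's difference was not tested.

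**Figure D1:**
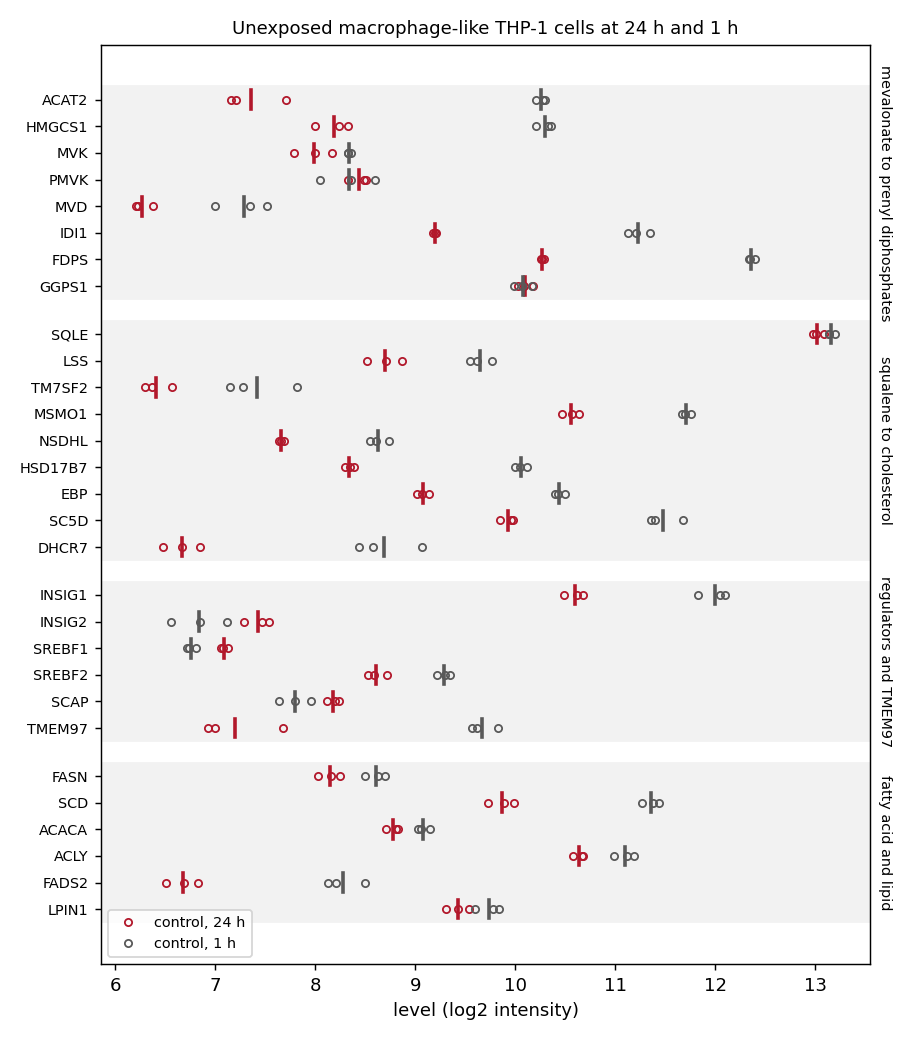
Levels of the 29 tested members in the control cells, grouped by step of the pathway. Each circle is 1 array (log2 intensity on the horizontal axis), red for 24 h and grey for 1 h, and each vertical bar is the mean of 3 arrays. The red circles lie to the left for 24 members, and INSIG2, SREBF1 and SCAP lie to the right.

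The same time difference was present in exposed cells. Between the groups at 24 h and at 1 h, the median over the 29 members was -0.74 with 100 µg/ml MWCNT, -1.04 with 10 µg/ml MWCNT, -1.13 with 100 µg/ml TiO2-NB and -1.04 with 10 µg/ml TiO2-NB. The all-gene medians of these differences lay between 0.01 and 0.05. Exposure differences at 24 h were thus measured on levels below those at 1 h for most members, with LSS, MSMO1 and SC5D among them.

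After 24 h with 100 µg/ml MWCNT, 8 members were higher than in control cells and 1 was lower. That is 31.0% of the 29 members, against 13.0% of all tested genes, of which 8.99% were higher and 4.04% lower. The median difference was 0.16 over the members and -0.01 over all genes, and 23 of 29 members had a difference above 0 (47.0% of all genes). The count was 5 without replicate 1 of the 24 h control. By part of the list, 1 of 8 enzymes from acetyl-CoA to prenyl diphosphates and 2 of 9 from squalene to cholesterol were higher. So were 2 of 6 regulators and targets and 3 of 6 fatty acid genes, against 8.99% of all genes. These are counts of few genes, and the difference between parts was not tested.

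TMEM97 had the largest difference. It read 8.48, 8.18 and 8.12 with MWCNT, against 6.93, 7.0 and 7.68 in control cells, a difference of 1.06 ± 0.20 (2.08-fold, adjusted p = 0.000856 by limma). All MWCNT arrays lay above all control arrays, and the highest control array was replicate 3. Without that array the difference was 1.30. INSIG1, which restrains SREBP processing, went the other way, with 10.30, 10.06 and 10.09 with MWCNT against 10.62, 10.68 and 10.49 in control cells (-0.44 ± 0.10, 0.736-fold, adjusted p = 0.00267). SREBF2 read 8.87, 8.79 and 8.78 with MWCNT, against 8.59, 8.52 and 8.72 in control cells (0.20 ± 0.05, adjusted p = 0.0103). Neither gene's groups overlapped, and the SREBF2 call was lost without MWCNT replicate 1 or control replicate 1 or 2, or with only these groups in the fit (adjusted p 0.00231 to 0.152 over all alternatives). SREBF1 read 6.82, 7.22 and 7.33 with MWCNT, against 7.07, 7.13 and 7.05 in control cells. Its groups overlapped (0.04 ± 0.11, adjusted p = 0.872), as did those of INSIG2 (0.05 ± 0.13) and SCAP (-0.08 ± 0.09).

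Of the sterol enzymes LSS, FDPS and MSMO1 were called higher with MWCNT. LSS read 9.16, 9.20 and 9.20 with MWCNT, against 8.71, 8.52 and 8.87 in control cells (0.49 ± 0.10, 1.40-fold, adjusted p = 0.00105). FDPS read 10.51, 10.65 and 10.76 with MWCNT, against 10.26, 10.26 and 10.29 in control cells (0.37 ± 0.06, adjusted p = 7.44e-05). MSMO1 read 10.88, 10.84 and 10.85 with MWCNT, against 10.46, 10.64 and 10.56 in control cells (0.30 ± 0.07, adjusted p = 0.00709). The MWCNT arrays of all 3 genes lay above every control array, and the MSMO1 call was lost without replicate 1 of the control (adjusted p 0.0036 to 0.0582 over all alternatives). HMGCS1 read 8.64, 8.35 and 8.32 with MWCNT, against 8.0, 8.24 and 8.32 in control cells, and was not called (0.25 ± 0.11, adjusted p = 0.168). SQLE, with 13.11, 13.04 and 13.01 against 13.00, 13.09 and 12.97, was not called either (0.03 ± 0.05, 95% interval -0.07 to 0.14). ACAT2 (0.43 ± 0.17, adjusted p = 0.097), DHCR7 (0.42 ± 0.15, adjusted p = 0.0675) and SC5D (0.27 ± 0.09, adjusted p = 0.0533) missed the threshold.

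Fatty acid genes followed, with SCD in front. SCD read 10.19, 10.31 and 10.37 with MWCNT, against 9.72, 9.99 and 9.89 in control cells (0.42 ± 0.08, 1.34-fold, adjusted p = 0.000748). FASN read 8.44, 8.41 and 8.36 with MWCNT, against 8.03, 8.16 and 8.25 in control cells (0.26 ± 0.07, adjusted p = 0.0196). ACLY, which supplies cytosolic acetyl-CoA to both branches, read 10.85, 10.81 and 10.84 with MWCNT, against 10.58, 10.67 and 10.67 in control cells (0.19 ± 0.05, adjusted p = 0.0182). No arrays overlapped for these 3 genes. The calls of FASN (adjusted p 0.0113 to 0.83) and ACLY (0.00855 to 0.12) were lost under 5 of the 14 alternatives each, among them the mean of all probe sets of the gene. ACACA (0.17 ± 0.07), FADS2 (-0.01 ± 0.17) and LPIN1 (-0.04 ± 0.12) were not called.

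Cell cycle genes moved with MWCNT too. Of 13 listed ones 12 were higher than in control cells (median 0.92), against 8.99% of all genes, and their mean level lay between 8.50 and 8.72 in the MWCNT arrays and between 7.49 and 7.97 in the control arrays. Replicate 3 of the control, the highest control array for TMEM97, was also the highest control array for these genes. The MWCNT array with the highest mean and the highest TMEM97 was replicate 1, and both arrays are among those that stood apart. Of the tested macrophage and monocyte markers 8 of 8 were below the control, while 47.0% of all genes were above it. None of the 8 was called (13.0% of all genes). Their mean level lay between 10.00 and 10.05 in the MWCNT arrays and between 10.14 and 10.17 in the control arrays. Over the 15 arrays at 24 h, deviations from the group means correlated with the cell cycle mean at r = 0.96 for TMEM97, 0.96 for ACAT2 and 0.73 for LSS. Over the 10 arrays left without those that stood apart, r was 0.36 for TMEM97, 0.90 for ACAT2 and -0.73 for LSS, so the relation of TMEM97 and that of LSS rest on 1 array per group. Without those arrays the MWCNT difference of TMEM97 was 1.19 ± 0.15 (adjusted p = 0.000118). The part of the cell cycle and of the macrophage markers in the MWCNT differences was not tested.

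**Figure D2:**
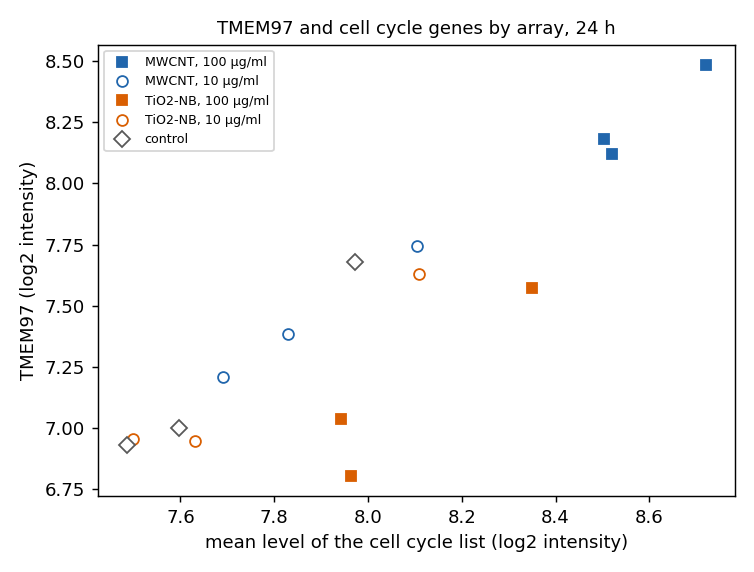
TMEM97 level (vertical axis, log2 intensity) against the mean level of 13 cell cycle genes (horizontal axis, log2 intensity) in the 15 arrays at 24 h. Squares are 100 µg/ml, circles 10 µg/ml and diamonds the control, with MWCNT in blue and TiO2-NB in orange. The 3 MWCNT arrays at 100 µg/ml lie highest on both axes, and the TiO2-NB arrays at 100 µg/ml lie lower in TMEM97 than other arrays of a like cell cycle level.

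With 100 µg/ml TiO2-NB at 24 h the direction was mostly down. Of the 29 members 7 were lower than in control cells and 1 was higher, or 27.6%, against 22.1% of all tested genes, of which 11.1% were lower and 10.9% higher. The median difference was -0.12 over the members and 0.01 over all genes. A difference above 0 was found in 6 members (52.9% of all genes), and in 15 members the arrays did not overlap (33.3% of all genes). The count was 5 without replicate 2 of the 24 h control and also without replicate 2 of TiO2-NB. The MWCNT and TiO2-NB comparisons share their 3 control arrays.

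Most of the members called lower act after squalene, although the difference between steps was not tested. Of the 9 enzymes from squalene to cholesterol 5 were lower and 1 higher, with a median of -0.39 (11.1% of all genes lower and 10.9% higher). None of the 8 enzymes before squalene was called (median -0.05, against 22.1% of all genes called). PMVK read 8.06, 8.21 and 8.17 with TiO2-NB, against 8.49, 8.32 and 8.51 in control cells. IDI1 read 9.04, 8.89 and 8.85 against 9.17, 9.20 and 9.21, and FDPS 10.17, 10.08 and 10.11 against 10.26, 10.26 and 10.29. PMVK, IDI1 and FDPS thus lay below all control arrays without a call (33.3% of all genes did not overlap). The other enzymes before squalene overlapped with the control. MSMO1 read 10.03, 9.87 and 9.92 with TiO2-NB, against 10.46, 10.64 and 10.56 in control cells (-0.62 ± 0.07, 0.653-fold, adjusted p = 1.49e-06). SC5D read 9.50, 9.19 and 9.45 with TiO2-NB, against 9.84, 9.98 and 9.96 in control cells (-0.55 ± 0.09, adjusted p = 0.000105). HSD17B7 read 7.91, 7.83 and 7.78 with TiO2-NB, against 8.38, 8.35 and 8.29 in control cells (-0.50 ± 0.08, adjusted p = 6.75e-05). All TiO2-NB arrays of these 3 enzymes were below all control arrays. The HSD17B7 probe set carries the suffix of sets that can cross-hybridise with related transcripts, and so do both probe sets of IDI1.

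DHCR7 read 6.31, 6.05 and 6.31 with TiO2-NB, against 6.48, 6.67 and 6.84 in control cells (-0.44 ± 0.15, adjusted p = 0.0372). EBP read 8.57, 8.81 and 8.68 with TiO2-NB, against 9.14, 9.07 and 9.02 in control cells (-0.39 ± 0.08, adjusted p = 0.000521). Neither gene's arrays overlapped, and the DHCR7 call was lost without replicate 2 or 3 of either group (adjusted p 0.0278 to 0.154 over all alternatives). LSS was the exception, with 9.43, 9.33 and 9.28 with TiO2-NB against 8.71, 8.52 and 8.87 in control cells (0.65 ± 0.10, 1.57-fold, adjusted p = 2.12e-05). Its TiO2-NB arrays were above all control arrays, and the direction was opposite to that of the enzymes that act after it. NSDHL (-0.17 ± 0.08, adjusted p = 0.128) and TM7SF2 (-0.13 ± 0.16, adjusted p = 0.612) were not called. SQLE, with 13.00, 12.94 and 13.07 against 13.00, 13.09 and 12.97, differed by -0.01 ± 0.05 on the probe set used (95% interval -0.12 to 0.09).

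Of the 6 regulators and targets 1 was lower with TiO2-NB (median -0.12), and of the 6 fatty acid genes 1 (median -0.05), against 11.1% of all genes. INSIG2 read 6.84, 7.13 and 7.17 with TiO2-NB, against 7.47, 7.54 and 7.28 in control cells (-0.38 ± 0.13, adjusted p = 0.0442). ACACA, which makes malonyl-CoA for fatty acid synthesis, read 8.54, 8.48 and 8.62 with TiO2-NB, against 8.70, 8.80 and 8.83 in control cells (-0.23 ± 0.07, adjusted p = 0.0148). Neither pair of groups overlapped, but the INSIG2 call was lost under 7 of 14 alternatives (adjusted p 0.024 to 0.208) and the ACACA call under 5 (0.00966 to 0.131). INSIG1, with 10.66, 10.49 and 10.57 against 10.62, 10.68 and 10.49, differed by -0.02 ± 0.10. SREBF2, with 8.61, 8.53 and 8.58 against 8.59, 8.52 and 8.72, differed by -0.04 ± 0.05. TMEM97, with 7.57, 7.04 and 6.80 against 6.93, 7.0 and 7.68, differed by -0.07 ± 0.20, and all 3 of these genes had overlapping arrays. SREBF1 read 6.60, 7.05 and 6.98 with TiO2-NB, against 7.07, 7.13 and 7.05 in control cells, just below without overlap and without a call (-0.21 ± 0.11, adjusted p = 0.186). HMGCS1, with 8.32, 7.86 and 8.09 against 8.0, 8.24 and 8.32 (-0.10 ± 0.11), and SCD, with 9.84, 9.88 and 9.75 against 9.72, 9.99 and 9.89 (-0.05 ± 0.08), overlapped with the control. Of the 13 cell cycle genes 1 was higher with TiO2-NB (median 0.38), against 10.9% of all genes. Their mean level lay between 7.94 and 8.35 in the TiO2-NB arrays and between 7.49 and 7.97 in the control arrays. The part of the cell cycle in the TiO2-NB differences was not tested.

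**Figure D3:**
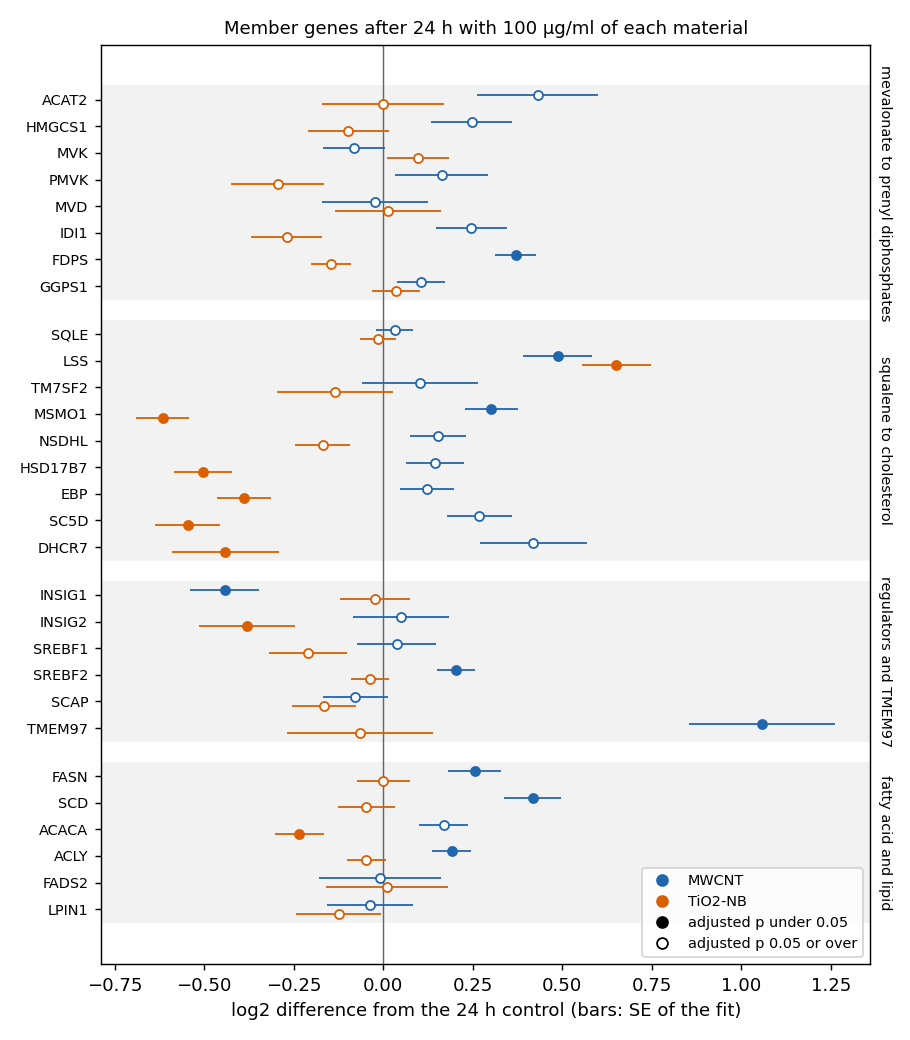
Log2 difference from the 24 h control (horizontal axis) of the 29 tested members after 24 h with 100 µg/ml of each material, grouped by step of the pathway. Points are differences with the SE of the fit as bars, blue for MWCNT and orange for TiO2-NB, and filled points have an adjusted p under 0.05. MSMO1 has filled points on opposite sides of 0, LSS has both on the right, and TMEM97 with MWCNT lies farthest from 0.

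More members were called between the materials than between either material and the control. In the direct comparison at 100 µg/ml and 24 h, 17 members were higher with MWCNT than with TiO2-NB and 1 was lower, 62.1% of 29, against 24.9% of all tested genes, of which 14.0% were higher and 10.9% lower. The median difference was 0.32 over the members and -0.02 over all genes. A difference above 0 was found in 24 members (46.9% of all genes), and in 20 the arrays of the 2 materials did not overlap (40.8% of all genes). Leaving out each array in turn gave counts between 16 and 18. Same-numbered arrays of these 2 groups deviated together (r of 0.62, 0.44 and 0.36). A block of the replicate number over all groups left the count at 18. The numbers do not go together over all groups, so that block cannot account for deviations that only some groups share. A block within sets of groups whose same-numbered arrays go together (the set block), chosen after seeing the data, gave 22. ACAT2, SREBF1 and TM7SF2 were then higher and LSS lower beside the 18. The sets were found from the same deviations, which lowers the residual spread by construction.

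Calls were spread over the list, against 14.0% of all genes higher with MWCNT. Higher were 4 of 8 enzymes before squalene, 6 of 9 after it, 3 of 6 regulators and targets and 4 of 6 fatty acid genes. MSMO1 differed by 0.92 ± 0.07 (1.89-fold, adjusted p = 1.15e-08), with its lowest MWCNT array at 10.84 and its highest TiO2-NB array at 10.03. TMEM97 differed by 1.12 ± 0.20 (2.18-fold, adjusted p = 0.000343), DHCR7 by 0.86 ± 0.15 (adjusted p = 0.000226), SC5D by 0.82 ± 0.09 (adjusted p = 1.06e-06) and HSD17B7 by 0.65 ± 0.08 (adjusted p = 4.8e-06). For these 5 genes the 3 MWCNT arrays lay above the 3 TiO2-NB arrays. DHCR7 read 7.07, 7.20 and 6.98 with MWCNT, against 6.31, 6.05 and 6.31 with TiO2-NB. SC5D read 10.31, 10.12 and 10.16 with MWCNT, against 9.50, 9.19 and 9.45 with TiO2-NB. HSD17B7 read 8.39, 8.64 and 8.43 with MWCNT, against 7.91, 7.83 and 7.78 with TiO2-NB. The control arrays lay between the materials for MSMO1, DHCR7, SC5D and HSD17B7, whereas those of TMEM97 overlapped with TiO2-NB.

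Before squalene, IDI1 read 9.47, 9.48 and 9.38 with MWCNT, against 9.04, 8.89 and 8.85 with TiO2-NB (0.52 ± 0.10, adjusted p = 0.000534). PMVK read 8.63, 8.60 and 8.58 with MWCNT, against 8.06, 8.21 and 8.17 with TiO2-NB (0.46 ± 0.13, adjusted p = 0.0122). FDPS differed by 0.52 ± 0.06 (adjusted p = 7.2e-07) and HMGCS1 by 0.34 ± 0.11 (adjusted p = 0.0289). IDI1 and PMVK, neither of them called against the control in MWCNT or TiO2-NB cells, did not overlap between the materials, whereas HMGCS1 did overlap and lost its call under 5 alternatives (adjusted p 0.00651 to 0.188). Among the fatty acid genes SCD differed by 0.46 ± 0.08, ACACA by 0.40 ± 0.07, FASN by 0.25 ± 0.07 and ACLY by 0.24 ± 0.05. Of the regulators, INSIG2 (0.43 ± 0.13) and SREBF2 (0.24 ± 0.05) were higher with MWCNT and INSIG1 was lower (-0.42 ± 0.10, adjusted p = 0.00283). SREBF1 was not called (0.25 ± 0.11, adjusted p = 0.0996, and 0.00457 with the set block). LSS, the enzyme higher with both materials, was not called between them (-0.16 ± 0.10, 95% interval -0.36 to 0.04). Its MWCNT arrays did lie below its TiO2-NB arrays, and the adjusted p was 0.0392 with the set block.

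**Figure D4:**
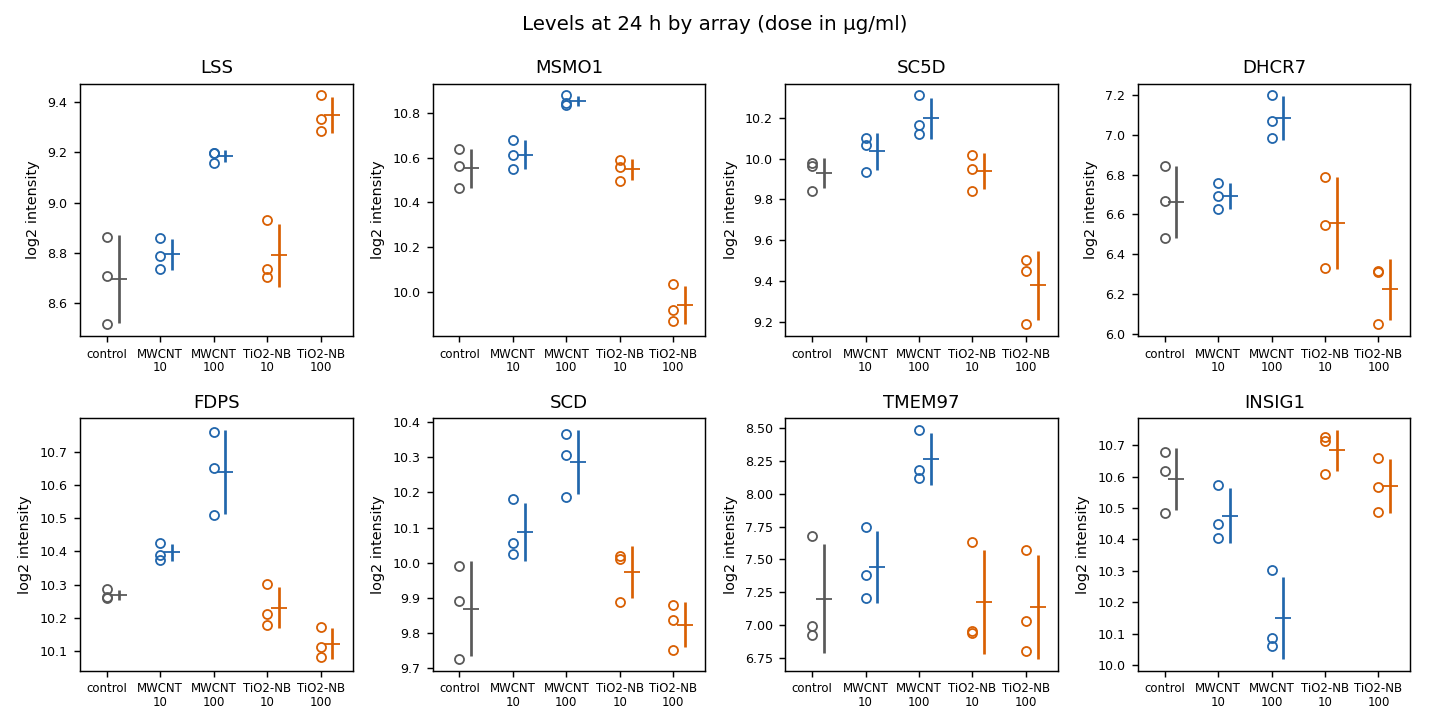
Levels at 24 h (log2 intensity, a scale of its own in each panel) of 8 members by group, with the dose in µg/ml under each material. Circles are single arrays, and the line beside them gives the mean and SD of 3 arrays. MSMO1 and SC5D with 100 µg/ml TiO2-NB lie below all other groups, INSIG1 with 100 µg/ml MWCNT lies below all others, and LSS with 100 µg/ml of either material lies above all others.

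The probe sets of a gene did not always give the same value. Of the 29 members 17 had several kept probe sets, 28 further sets in all, and these were fitted together with all kept probe sets. The widest gap was in SQLE. Its dimmest probe set read 9.05, 8.47 and 7.90 with 100 µg/ml TiO2-NB, against 10.27, 10.24 and 10.35 in control cells at 24 h (-1.81 ± 0.22, adjusted p = 2.2e-06), while the middle one differed by -0.03 ± 0.09 and the brightest, used above, by -0.01 ± 0.05. With 10 µg/ml TiO2-NB the same probe set read 9.97, 9.80 and 9.13, all below the control arrays but not called (-0.65 ± 0.22, adjusted p = 0.584). With 100 µg/ml MWCNT it read 10.21, 10.00 and 9.76 (-0.30 ± 0.22, adjusted p = 0.463), and the direct difference between MWCNT and TiO2-NB was 1.52 ± 0.22 (adjusted p = 4.04e-05). The 24 h arrays with TiO2-NB at 100 µg/ml lay lowest of all groups on this probe set. At 1 h, too, it was below the control arrays with 100 µg/ml TiO2-NB, with 10.76, 10.58 and 10.32 against 11.53, 11.11 and 10.87. The other exposed groups at 1 h overlapped with the control on it. Which part of the transcript each SQLE probe set reads is not given in the sources used here, and the cause of the gap was not tested.

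For LSS all 3 probe sets were higher with TiO2-NB than in control cells, the dimmest by 1.14 ± 0.18 and the middle one by 0.56 ± 0.14. On the dimmest, LSS was lower with MWCNT than with TiO2-NB (-0.54 ± 0.18, adjusted p = 0.0325). For INSIG1 all 3 sets were lower with MWCNT than in control cells, the dimmest by -0.50 ± 0.15 and the middle one by -0.46 ± 0.10. Of the 4 sets of TMEM97, the second brightest (1.13 ± 0.22) and the dimmest (0.85 ± 0.23) were higher with MWCNT, and the third was not called (0.08 ± 0.13). For EBP, the middle set was lower with TiO2-NB (-0.30 ± 0.06) and the dimmest was not called (0.05 ± 0.10). The dimmer set of FASN differed by -0.19 ± 0.12 with MWCNT, against 0.26 ± 0.07 on the brighter set.

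At 10 µg/ml no member was called at 24 h. Of the 29 members, 2 had an unadjusted p under 0.05 with MWCNT against control (4.19% of all genes, of which 0% had an adjusted p under 0.05 by limma), and 2 with TiO2-NB (4.72% of all genes, 0.0199% called). SCD read 10.06, 10.18 and 10.02 with 10 µg/ml MWCNT, above all control arrays (0.22 ± 0.08, unadjusted p = 0.0112, adjusted p = 1). FDPS read 10.37, 10.43 and 10.39, also above all control arrays (0.13 ± 0.06, unadjusted p = 0.0329). With 10 µg/ml TiO2-NB, EBP read 9.0, 8.85 and 8.80, below all control arrays (-0.19 ± 0.08, unadjusted p = 0.0181, adjusted p = 0.952). MVK, the fourth of these genes, overlapped with the control (0.22 ± 0.09 with TiO2-NB, adjusted p = 0.954).

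Between the materials at 10 µg/ml and 24 h no member was called by limma (0.00995% of all genes), and 7 of 29 had an unadjusted p under 0.05 (10.3% of all genes). In 26 of the 29 members the difference was above 0, that is, higher with MWCNT than with TiO2-NB (55.4% of all genes), with a median of 0.10 over the members and 0.01 over all genes. The arrays did not overlap in 10 members (18.5% of all genes). EBP differed by 0.26 ± 0.08 (adjusted p = 0.196, and 0.0426 with the set block chosen after seeing the data). It read 9.18, 9.21 and 9.05 with MWCNT against 9.0, 8.85 and 8.80 with TiO2-NB. PMVK differed by 0.28 ± 0.13 (adjusted p = 0.467) and INSIG1 by -0.21 ± 0.10 (adjusted p = 0.464), with 10.40, 10.45 and 10.57 with MWCNT against 10.73, 10.71 and 10.61 with TiO2-NB. MVK had the opposite sign to most members (-0.31 ± 0.09, adjusted p = 0.184).

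Within each material, 100 µg/ml was set against 10 µg/ml at 24 h. With MWCNT 3 members were higher at 100 µg/ml and none was lower (10.3% of 29, against 4.67% of all genes): TMEM97 (0.82 ± 0.20, adjusted p = 0.0194), LSS (0.39 ± 0.10, adjusted p = 0.0182) and FDPS (0.24 ± 0.06, adjusted p = 0.0117). TMEM97 read 8.48, 8.18 and 8.12 at 100 µg/ml, against 7.21, 7.38 and 7.75 at 10 µg/ml, without overlap. No call held throughout: without replicate 1 of the 10 µg/ml group or replicate 2 of the 100 µg/ml group the count was 0, and it was 1 without replicate 2 of the 10 µg/ml group or replicate 3 of the 100 µg/ml group. With TiO2-NB 4 members were called (13.8%, against 13.5% of all genes), LSS higher at 100 µg/ml (0.56 ± 0.10, adjusted p = 0.000298) and MSMO1 (-0.61 ± 0.07, adjusted p = 3.75e-06), SC5D (-0.56 ± 0.09, adjusted p = 0.000178) and HSD17B7 (-0.44 ± 0.08, adjusted p = 0.000636) lower. MSMO1 read 10.03, 9.87 and 9.92 at 100 µg/ml, against 10.50, 10.59 and 10.56 at 10 µg/ml. These 4 calls with TiO2-NB held under all 14 alternatives, and the arrays at 10 µg/ml overlapped with the control arrays for each of the 4 genes.

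After 1 h no member was called with any exposure by the limma test without a block. With 100 µg/ml TiO2-NB 5 of 29 members had an unadjusted p under 0.05 (15.7% of all genes, 1.15% called), with 100 µg/ml MWCNT 1 (2.92%, and 0% called), and with 10 µg/ml of MWCNT (1.61%, and 0% called) or TiO2-NB (2.12%, and 0% called) none. INSIG1 had the lowest p with TiO2-NB, with 11.89, 11.49 and 11.72 against 12.10, 11.83 and 12.05 in control cells (-0.29 ± 0.10, adjusted p = 0.123), and the groups overlapped. Same-numbered arrays of these 2 groups deviated together. With the set block, chosen after seeing the data, INSIG1 (adjusted p = 0.0243) and INSIG2 (adjusted p = 0.0421) were called, as were 5.41% of all genes. A block of the replicate number over all groups, whose numbers do not all go together, called no member here. The middle INSIG1 probe set overlapped, with 11.98, 11.67 and 11.88 with TiO2-NB against 12.04, 11.60 and 11.87 in control cells. The dimmest read 9.71, 9.46 and 9.60 against 10.44, 9.73 and 10.13, without overlap. INSIG1 was also below the control with 100 µg/ml MWCNT, with 11.82, 11.67 and 11.87 (-0.21 ± 0.10, adjusted p = 1). INSIG2 read 7.17, 7.40 and 7.07 with 100 µg/ml TiO2-NB, against 6.55, 7.12 and 6.85 in control cells (0.37 ± 0.13, adjusted p = 0.165). On the probe set used, MVK read 8.18, 8.01 and 8.12 with TiO2-NB, against 8.35, 8.33 and 8.32, without overlap (-0.23 ± 0.09, adjusted p = 0.179). Its other probe sets overlapped. The middle one read 7.36, 7.18 and 7.26 against 7.62, 7.28 and 7.31, and the dimmest 6.98, 6.76 and 6.86 against 6.94, 6.71 and 6.75. Between MWCNT and TiO2-NB at 100 µg/ml no member was called (1.42% of all genes), and 2 had an unadjusted p under 0.05 (14.5% of all genes). NSDHL was the nearest to a call, with 8.61, 8.40 and 8.45 with MWCNT against 8.80, 8.85 and 8.62 with TiO2-NB (-0.27 ± 0.08, adjusted p = 0.0756). It was called with the set block (adjusted p = 0.0211). Across all exposures, the F test called 0 of 29 members at 1 h (0.866% of all genes) and 18 at 24 h (62.1%, against 29.2% of all genes).

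Whether the response at 24 h differed from that at 1 h was tested directly, as the difference of both differences from the control. With 100 µg/ml MWCNT it was larger at 24 h for 3 members (10.3%, against 3.71% of all genes), FDPS (0.40 ± 0.08, adjusted p = 0.0061), TMEM97 (1.05 ± 0.29, adjusted p = 0.0416) and SCD (0.39 ± 0.11, adjusted p = 0.0496). That count fell to 1 without any single array of the 1 h control, without replicate 1 of the 24 h control, or without replicate 2 or 3 of either MWCNT group. With 100 µg/ml TiO2-NB 7 members were called (24.1%, against 16.3% of all genes). LSS had the higher response at 24 h (0.57 ± 0.14, adjusted p = 0.00617). INSIG2 (-0.75 ± 0.19, adjusted p = 0.00953), MSMO1 (-0.56 ± 0.11, adjusted p = 0.00082), SC5D (-0.56 ± 0.13), HSD17B7 (-0.41 ± 0.12), EBP (-0.37 ± 0.11) and ACACA (-0.31 ± 0.10) had the lower one. INSIG2 had differences of opposite sign at the 2 times.

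Over all 30 arrays the median Pearson r between 2 members was 0.83 (406 pairs), and ACAT2 and HMGCS1 reached 0.99. Those arrays share the difference between 1 and 24 h. Around the group means pairs went both ways, with a median of 0.05, 49 pairs above 0.5 and 27 below -0.5, and 53 and 32 without the arrays that stood apart. ACAT2 and TMEM97 had the highest value there (0.84), and HMGCS1 and SREBF1 the lowest (-0.81).

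Other genes of lipid metabolism were read from lists of pathway members. Of 20 further regulators and fatty acid genes, 6 were higher and 1 lower with 100 µg/ml MWCNT at 24 h (35% of 20, against 13.0% of all genes). With TiO2-NB 3 were higher and 1 lower (20% of 20, against 22.1% of all genes). ACSL1, which activates long-chain fatty acids, was higher by 0.50 ± 0.11 with MWCNT and by 0.91 ± 0.11 with TiO2-NB, and lower with MWCNT than with TiO2-NB (-0.40 ± 0.11, adjusted p = 0.008). HACD3, a dehydratase of fatty acid elongation, was higher with MWCNT (0.49 ± 0.12), and so was ME1, the malic enzyme that supplies NADPH (0.46 ± 0.12). With TiO2-NB SOAT1, which esterifies cholesterol, was higher (0.76 ± 0.14), and so was NPC1, which moves cholesterol out of lysosomes (0.52 ± 0.10). Of 11 genes that draw on mevalonate for other products, 1 was higher with MWCNT (9.09%, against 8.99% of all genes). This was PDSS1, which builds the tail of coenzyme Q (0.90 ± 0.15). None of the 11 was called with TiO2-NB (22.1% of all genes).

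Of 8 genes around the LXR receptors 2 were higher and 1 lower with each material (37.5%, against 13.0% of all genes with MWCNT and 22.1% with TiO2-NB). NR1H3, which encodes LXR alpha, was higher by 0.88 ± 0.18 with MWCNT and by 0.88 ± 0.18 with TiO2-NB. PLTP, the phospholipid transfer protein, was higher with MWCNT (0.84 ± 0.08, adjusted p = 2.45e-07) and higher with MWCNT than with TiO2-NB (0.84 ± 0.08). CYP27A1, which makes 27-hydroxycholesterol, was higher with TiO2-NB (0.65 ± 0.12) and lower with MWCNT than with TiO2-NB (-0.49 ± 0.12). RXRA, the partner receptor, was lower with MWCNT (-0.42 ± 0.09) and with TiO2-NB (-0.37 ± 0.09).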

How the data were processed

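The deposited values are log2 intensities per probe set on an Affymetrix array, made by RMA (background correction, quantile normalization and summary). The submitters' processing notes name RMA and no version of it. RMA sets all arrays to 1 distribution, so only changes relative to the other genes on an array can be read. Of 22277 probe sets, 62 were controls and 19064 had 1 gene in the platform annotation, while 1043 with several genes and 2108 with none were not used. The filter asked for 3 or more arrays with a value over that array's 25th percentile, and each gene was read from its brightest kept probe set, which left 10050 genes. limma 3.58.1 in R 4.3.3 (lmFit and eBayes) fitted 10 group means to all 30 arrays with 20 residual degrees of freedom, and p-values were adjusted by Benjamini-Hochberg over all tested genes within a comparison. The fit was tested on simulated data. Groups and replicate numbers came from the labels, which call the arrays biological replicates without naming separate cultures, so p-values may measure technical spread only. Same-numbered arrays correlated above 0.1 in 38 of 60 pairs and below 0 in 21. All 3 numbers went together among the control and both 10 µg/ml groups at 24 h, between both 100 µg/ml groups at 24 h, and among 4 of the 5 groups at 1 h, but not between these sets, and the labels name no shared batch. The fit has no block, and a block within each set was added after the data were seen and is given beside a result whose groups lie in 1 set where it changes a call.

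The members and gene lists were chosen with earlier results of these data known. Array values were given for called members with the largest differences and no overlap and for a set of regulators, targets and enzymes, and up to 3 called genes of each other list were named. Another scaling, filter, probe set summary or fit and each array left out in turn were tried as alternatives. Promoter windows were RefSeq's, matched by symbol to GRCh38.p14.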

Additional observations from a re-analysis of the deposited data

Results flagged for a closer look

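The responses of 10 members to 100 µg/ml differed between 24 h and 1 h by a test of the interaction in limma, each value being the difference from control at 24 h minus that at 1 h, with its SE. With MWCNT these were TMEM97 (1.05 ± 0.29, adjusted p = 0.0416), FDPS (0.40 ± 0.08, adjusted p = 0.0061) and SCD (0.39 ± 0.11, adjusted p = 0.0496). With TiO2-NB they were LSS (0.57 ± 0.14, adjusted p = 0.00617), INSIG2 (-0.75 ± 0.19, adjusted p = 0.00953), MSMO1 (-0.56 ± 0.11, adjusted p = 0.00082), SC5D (-0.56 ± 0.13, adjusted p = 0.0054), HSD17B7 (-0.41 ± 0.12, adjusted p = 0.0183), EBP (-0.37 ± 0.11, adjusted p = 0.0191) and ACACA (-0.31 ± 0.10, adjusted p = 0.0296). INSIG2 had differences of opposite sign, lower than control at 24 h (-0.38 ± 0.13) and above it at 1 h without a call (0.37 ± 0.13, adjusted p = 0.165). Groups of 3 arrays are too small for the test for a sample far from the others.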

How the results depend on the processing

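No member's difference that was called changed its sign under any of the 14 alternatives run for each in the comparisons at 24 h and between times. Under all of these, 5 of 9 calls with 100 µg/ml MWCNT against control at 24 h, 5 of 8 with TiO2-NB, 15 of 18 between the materials and 23 of 27 between 24 h and 1 h in control cells were kept. The counts between 100 and 10 µg/ml MWCNT (3 in the fit reported) became 5 with the stricter filter, 5 with cyclic loess, 5 with a trended and robust fit and 1 with the mean of a gene's probe sets. The MWCNT response between times (3) became 1 with the mean of probe sets and 0 with only the compared groups in the fit. The cause of these moves was not tested. Leaving out 1 array in turn gave 24 to 26 members between times in control cells, 5 to 11 with MWCNT, 5 to 8 with TiO2-NB, 16 to 18 between the materials, 0 to 3 between MWCNT doses, 4 to 5 between TiO2-NB doses, 1 to 4 for the MWCNT response and 5 to 8 for the TiO2-NB response, and 0 to 0 in every other comparison. With the replicate number as a block the counts were 10 with MWCNT, 9 with TiO2-NB, 18 between the materials, 26 between times, 4 and 4 between doses of MWCNT and of TiO2-NB, 3 and 8 for their responses, and 0 elsewhere. Replicate numbers do not go together over all groups, so that block cannot account for deviations that only some groups share. Both of the next fits were chosen after seeing the data. Without the array of each group that stood apart, the MWCNT dose count was 6 and no other count moved by over 1.5 times, while the calls of ACLY with MWCNT, ACACA with TiO2-NB, FASN between the materials and LPIN1 and SQLE between times were lost. With a block within sets of groups whose numbers go together, the counts were 15 with MWCNT and 13 with TiO2-NB at 100 µg/ml against control at 24 h, 8 between MWCNT doses, 8 between TiO2-NB doses, 10 and 13 for the MWCNT and TiO2-NB responses, 1 between the materials at 10 µg/ml and 24 h, 1 between them at 100 µg/ml and 1 h, and 2 with 100 µg/ml TiO2-NB at 1 h. The sets were found from the same deviations, which lowers the residual spread by construction. The first 6 of these counts compare groups of different sets, whose arrays this block does not pair, so they are no paired results. No member lost its call under this block. The 3 arrays per group limit the precision, and no depth applies to arrays.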
